A study of Saccharomyces cerevisiae with 3 samples.

Results

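The 6 deletion strains described here lack BIM1, BIK1, KAR9, ASE1, FIN1 or SHE1, the genes of nonmotor proteins that bind microtubules at their growing plus ends or in the spindle midzone of budding yeast. They were taken by gene symbol from the platform annotation, and make up 42 of 18794 probes with a symbol and 6 of 5325 named genes. All 6 symbols matched the RefSeq gene table of assembly R64, which places BIM1 (YER016W) on chromosome V, as it does CIN8, BIK1 (YCL029C) on III, KAR9 (YPL269W) on XVI, ASE1 (YOR058C) on XV, FIN1 (YDR130C) on IV and SHE1 (YBL031W) on II. The study looked for deletions that change growth without CIN8, a kinesin-5 motor gene. Each of the 3 arrays compared a pool of haploid double mutants, which carried a deletion and cin8D::URA3 and came from MM-Ura plates, with a pool of haploid single mutants from MM plates with 5-fluoroorotic acid (5-FOA), a compound that kills cells with URA3. Both pools came from 1 transformed and sporulated collection of 5896 heterozygous diploid deletion strains, grew for 2 days at 30 degrees, and were read through 2 short DNA tags per strain. Double mutants were labelled with Cy3 and single mutants with Cy5 on every array, so that no dye was swapped, and experiments 1, 2 and 3 had 0.1, 0.15 and 0.2% 5-FOA.

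Plus-end proteins ride on the growing ends of microtubules and tie them to motors and to the cell cortex. Bim1, the yeast EB1, recruits other proteins to these ends, among them Kar9, which links astral microtubules to myosin on actin cables and so turns the spindle toward the bud. Bik1, the yeast relative of CLIP-170, takes part in carrying dynein to plus ends for a later route of spindle positioning. Ase1, a relative of PRC1, crosslinks antiparallel microtubules in the middle of the spindle, the same place where kinesin-5 motors push them apart. Fin1 binds spindle poles and microtubules in anaphase, and She1 binds spindle microtubules and inhibits dynein.

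Values are deposited log2 ratios of the array channels, after subtraction of the median of the same tag set on that array. The direction of the ratio was not given in the sources used here, so that the sign is that of the deposited values and no pool is assigned to it. As marks of the sign, the strain lacking KIP1, the other kinesin-5 gene, stood at 4.99 ± 0.50 (SD, n = 3), and the 4 uracil biosynthesis strains at 2.70 to 5.54. Uracil auxotrophs cannot grow without uracil, so that on their side a strain would be scarcer among double mutants. The query strain CIN8 stood on the opposite side, at -2.23 ± 0.26, which leaves the direction unsettled. A strain is said to be called where limma's test of the mean against 0 gave a Benjamini-Hochberg adjusted p under 0.05 over all 5204 strains. The labels do not say that the experiments were separate cultures, so that errors and p-values describe the spread of 3 arrays. That spread includes the different 5-FOA percentages of the experiments and may otherwise be technical.

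The strains lacking ASE1, BIM1 and BIK1 had positive ratios, and those lacking SHE1, KAR9 and FIN1 were not called. Thus 3 of the 6 were called, all 3 positive, where 33.6% of all strains were called in either direction with 16.2% positive and 17.4% negative. The median of the 6 means was 0.84, against -0.097 for all strains. The strains tested include some that lack genes essential to haploids, such as SLI15 and STU1. These were not set apart in the shares, ranks or medians. The SD over arrays ran from 0.10 for KAR9 to 0.98 for SHE1, and the median over all strains was 0.23. Without experiment 1, 2 or 3 no member kept its call, nor did any other strain (0 calls each by limma, with 1876, 1993 and 1874 strains at an unadjusted p under 0.05, among them 3, 4 and 3 members).

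**Figure D1:**
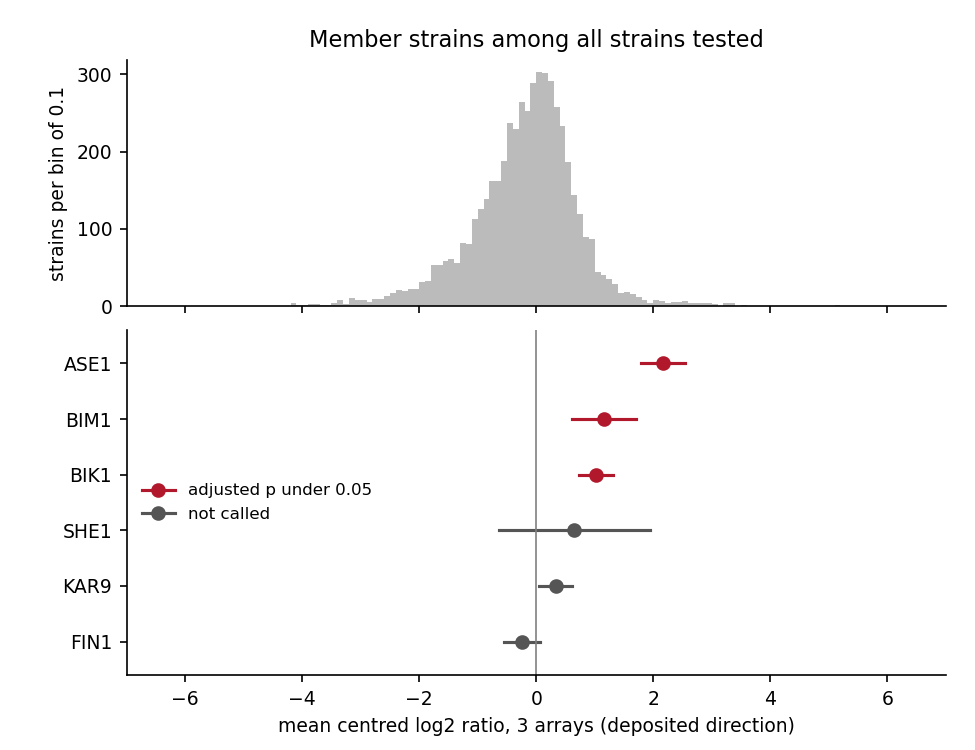
The upper panel counts all 5204 strains by mean centred log2 ratio, and the lower panel shows the 6 member strains with their 95% intervals from limma, not adjusted for multiple testing, over 3 arrays. ASE1 stood at 2.17 and BIM1 and BIK1 at 1.16 and 1.03, in the upper tail, while FIN1 stood at -0.24, and the interval of SHE1 was the widest of the 6.

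The midzone strain ASE1 had the highest strain mean of the 6. Its strain values, the mean of both tags, were 2.02, 2.08 and 2.42 in experiments 1, 2 and 3. By this mean of tags, all 3 arrays stood above every array of the other 5 strains. In tag set B alone, BIM1 gave 2.75, 2.67 and 2.09, with a mean of 2.50, and overlapped ASE1. The mean was 2.17 ± 0.22 (SD, n = 3), or a ratio of 4.50 (95% interval 3.47 to 5.83; limma, adjusted p = 0.0097), which ranked 71st of 5204 strains. Tag set A gave 2.25, 1.56 and 2.22, and tag set B gave 1.79, 2.60 and 2.61. Both tags were called positive on their own, with means of 2.01 and 2.33, each from 1 spot per array. The tags were in a different order on the arrays, and their difference was -0.32 ± 0.75 (A minus B, adjusted p = 0.600; 95% interval -1.32 to 0.68). ASE1 was called under all 12 alternative settings other than leaving out an array, with means of 1.86 to 2.33 and adjusted p-values of 0.0035 to 0.0469.

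FIN1, whose product bundles microtubules in anaphase, had values near 0 that differed by tag. The strain values were -0.38, -0.10 and -0.24, all below 0 and all below every array of KAR9. The mean was -0.24 ± 0.14, or a ratio of 0.848 (95% interval 0.686 to 1.05), and was not called (limma, adjusted p = 0.155). Tag set A gave 0.17, 0.37 and 0.11, and tag set B gave -0.92, -0.57 and -0.58, with 1 spot per tag and array. Every array thus had a positive tag A and a negative tag B, and tag B alone was called negative at -0.69 ± 0.20 (adjusted p = 0.0323, where 33.2% of strains were called in tag set B and 14.9% were called negative). The difference between the tags, 0.91 ± 0.20, was not called (adjusted p = 0.0562).

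**Figure D2:**
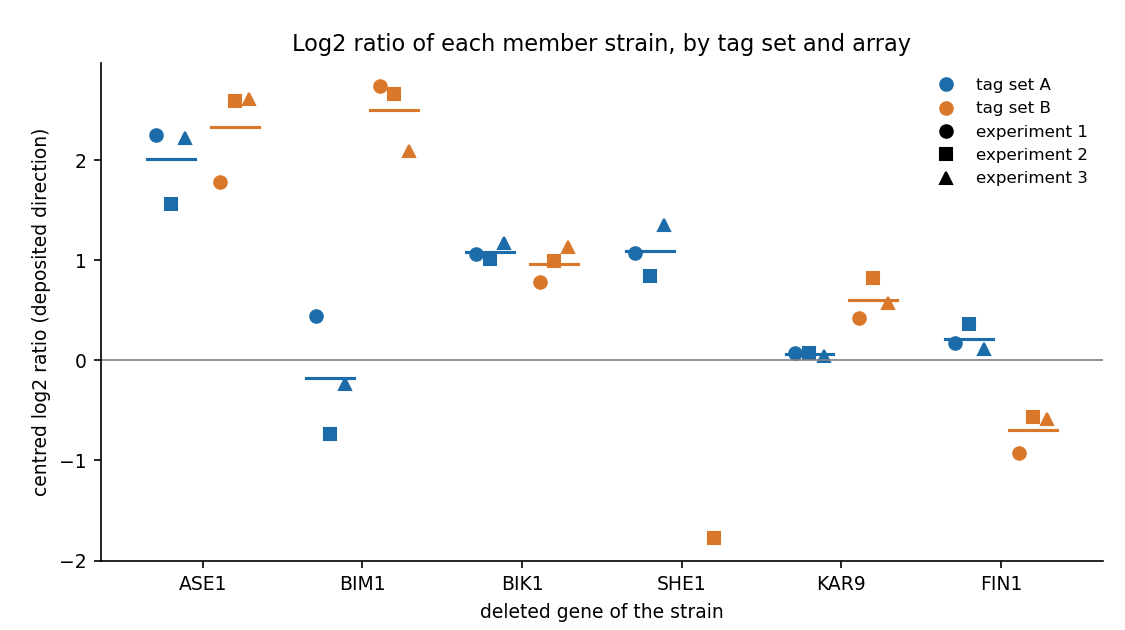
Each point is the centred log2 ratio of a strain in 1 tag set on 1 array, with blue for tag set A, orange for tag set B, a shape for each experiment and a line at the mean where all 3 arrays had a value. The tags of BIK1 lie together near 1, those of BIM1 lie apart at -0.18 and 2.50, and SHE1 has a single point in tag set B at -1.78.

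Among the plus-end strains, BIK1 had the smallest difference between its tags. Its strain values were 0.926, 1.004 and 1.150, and all were above 0. The mean was 1.03 ± 0.11, or a ratio of 2.04 (95% interval 1.67 to 2.49; limma, adjusted p = 0.0140), which ranked 292nd. Tag set A gave 1.07, 1.02 and 1.17, and tag set B gave 0.78, 0.99 and 1.13. Both tags were called, and they differed by 0.12 ± 0.14 (adjusted p = 0.623), with a 95% interval from -0.27 to 0.51. BIK1 and ASE1 were the 2 members called positive by both tags, where 11.2% of the 4293 strains measured by both were so called. With the 5-FOA percentage as a covariate, BIK1 was no longer called (adjusted p = 0.0537). Over the 12 settings that kept all arrays its adjusted p ran from 0.0061 to 0.0537, and leaving out an array gave 0.0748 to 0.0897.

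BIM1 was called on the mean of tags that did not show the same thing. The strain values were 1.59, 0.96 and 0.93, with a mean of 1.16 ± 0.37, or a ratio of 2.24 (95% interval 1.54 to 3.27; limma, adjusted p = 0.0266). Tag set A gave 0.44, -0.74 and -0.23, on either side of 0, and was not called at -0.18 ± 0.59 (adjusted p = 0.628). Tag set B gave 2.75, 2.67 and 2.09 and was called at 2.50 ± 0.36, or a ratio of 5.66 (adjusted p = 0.0101). No array of tag A reached any array of tag B. The tag difference was -2.30, -3.40 and -2.33 on the 3 arrays, with a mean of -2.68 ± 0.63, or 6.40-fold. It was called (adjusted p = 0.0331), where 7.22% of the 4293 strains were. In size it lay above that of 96.7% of these strains.

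The call of BIM1 ended with tag set A alone and with the tag value nearer to 0 (-0.18 in each, adjusted p = 0.628 and 0.691). It also ended with 5-FOA as a covariate (adjusted p = 0.0555) and without any 1 array (0.0829 to 0.101), and over the 12 settings with all arrays the adjusted p ran from 0.0101 to 0.691. Of the 822 strains called positive with both tags measured, 28 had a tag whose mean was at or below 0, and BIM1 was among them. Across the 4293 strains, 26.9% had tags with means of opposite sign.

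The spots of BIM1, BIK1 and KAR9, which had 6 for each tag, were then compared. ASE1, FIN1 and SHE1 had 1 spot for each tag, so that the scatter of their spots is not known. On the deposited scale, before centring, the tag A spots of BIM1 ran from 0.084 to 0.60 in experiment 1, from -0.94 to -0.81 in experiment 2 and from -0.60 to -0.27 in experiment 3. Its tag B spots ran from 1.74 to 4.71, from 1.38 to 3.58 and from 1.42 to 2.28. Every tag B spot of BIM1 was above every tag A spot. The tag B spots were also more scattered, with SDs of 1.08, 0.72 and 0.31 on the 3 arrays. The median for a tag with at least 3 spots on an array was 0.12 (n = 4699). The spot SDs of BIK1 were 0.027 to 0.11 and those of KAR9 0.039 to 0.10. With the median of spots in place of the mean, BIM1, BIK1 and ASE1 were the members called, and BIM1 kept its tag difference. Spots of 1 tag share the same labelled DNA and are not replicates of the experiment.

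**Figure D3:**
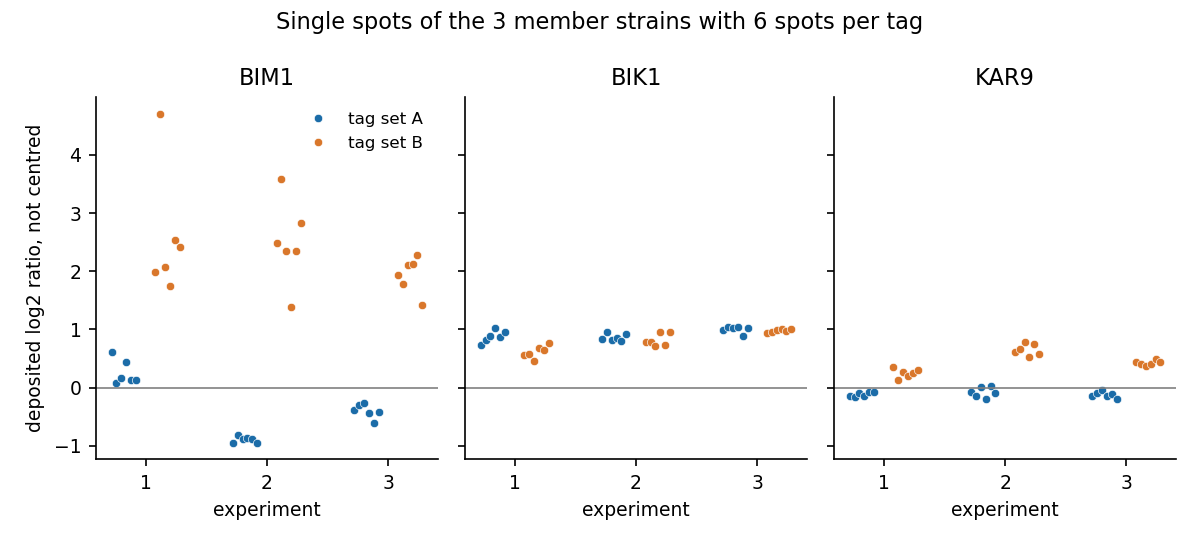
Points are single spots on the deposited log2 scale, not centred, for the 3 member strains with 6 spots per tag, with experiments along each axis, tag set A in blue and tag set B in orange. BIM1 has its tag B spots above its tag A spots in each experiment and a tag B spot at 4.71 in experiment 1, while the spots of BIK1 lie between 0.45 and 1.04.

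KAR9, whose product works with Bim1, stood nearer to 0 than BIM1 and BIK1. The strain values were 0.25, 0.45 and 0.31, above 0 on every array. The mean was 0.33 ± 0.10, or a ratio of 1.26 (95% interval 1.04 to 1.53), and it was not called (limma, adjusted p = 0.0741). It lay at the 74.3rd percentile of strains. Tag set A gave 0.072, 0.076 and 0.047 and was not called. Tag set B gave 0.42, 0.82 and 0.57 and was called at 0.60 ± 0.20 (adjusted p = 0.0416, where 18.2% of strains were called positive in tag set B). Tag B was higher on all arrays, but the tag difference of -0.54 ± 0.20 was not called (adjusted p = 0.131). The call of the strain mean depended on the setting. It passed with only the strains that had both tags on all arrays (adjusted p = 0.0485) and with a trended and robust variance (0.0425), and adjusted p-values over 12 settings ran from 0.0416 to 0.637.

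SHE1, with 1 spot for each tag, rested mainly on tag set A. That tag gave 1.07, 0.84 and 1.36 and was called at 1.09 ± 0.26, or a ratio of 2.13 (limma, adjusted p = 0.0176). ASE1, BIK1 and SHE1 were the 3 of 6 members called in tag set A, where 34.6% of strains were called. Tag set B had no value in experiments 1 and 3 and stood at -1.78 in experiment 2. These were the 2 empty values among the 126 deposited values of the members, of which 0 were at the lowest deposited ratio and 0 at the placeholder value. Averaged over the tags measured on each array, the strain values were 1.07, -0.47 and 1.36, with the single tag B value setting experiment 2 apart. The mean of 0.65 ± 0.98 was not called (adjusted p = 0.303). With each tag used only where all arrays had it, SHE1 was called at 1.09 (adjusted p = 0.0154). Over 10 settings its adjusted p ran from 0.0154 to 0.420.

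All 5 members with a tag B value on all arrays were called in tag set B, 4 positive (BIM1, ASE1, BIK1 and KAR9) and FIN1 negative, where 33.2% of all strains were called in that set, 18.2% positive and 14.9% negative. The median absolute tag difference of these 5 was 0.54, against 0.33 for all 4293 strains. That of BIM1 alone was called. Under a trended and robust variance, and with the 5-FOA covariate, limma called no tag difference in any strain (0 in each), and the adjusted p for BIM1 was then 0.125 and 0.109. It was 0.0988 to 0.158 without 1 of the arrays, and the lowest over all settings was 0.0305.

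**Figure D4:**
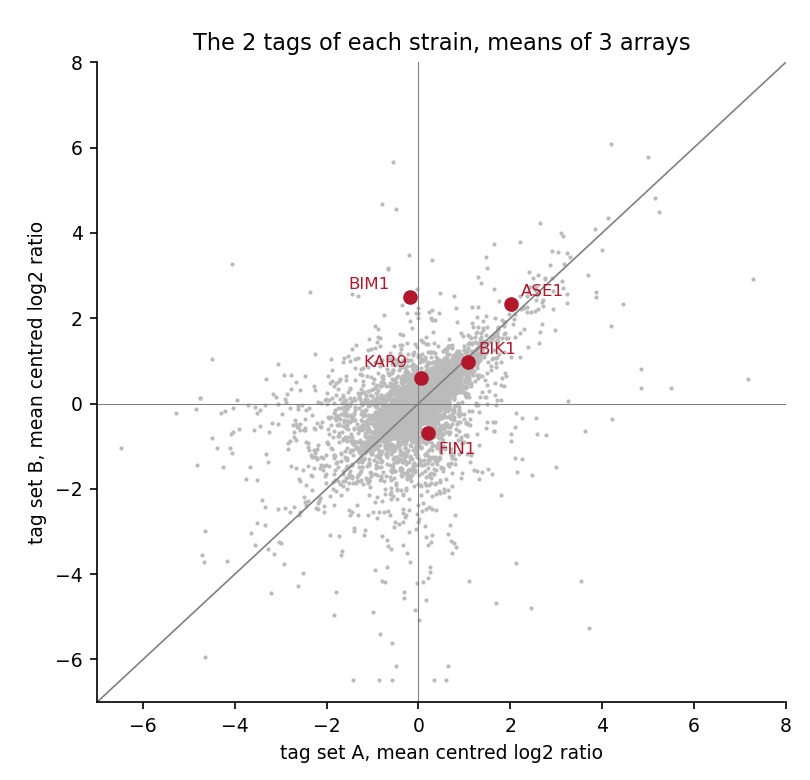
Each grey point is 1 of 4293 strains by its mean centred log2 ratio in tag set A (horizontal) and tag set B (vertical) over 3 arrays, with the 5 members that had both tags in red and the line of equal values. ASE1 and BIK1 lie near the line, BIM1 lies far above it at -0.18 and 2.50, and FIN1 lies below it at 0.22 and -0.69.

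The 6 strains ran in the order ASE1, BIM1, BIK1, SHE1, KAR9 and FIN1. Of the 15 pairs, 10 had array values that did not overlap. The share among pairs of all strains was not computed, so that this count says nothing particular about the members. Among the 5 pairs of neighbours in this order, ASE1 was apart from BIM1 (1.01 ± 0.54) and KAR9 was apart from FIN1 (0.57 ± 0.04). Both hold for the mean of tags. In tag set B alone, the arrays of ASE1 and BIM1 overlapped, with means of 2.33 and 2.50. In tag set A alone, FIN1 was the higher, at a mean of 0.22 against 0.065 for KAR9. BIM1 and BIK1 differed by 0.14 ± 0.47, with BIM1 higher on 1 of 3 arrays. BIK1 and SHE1, and SHE1 and KAR9, did not differ beyond their spread either, at 0.37 ± 0.95 and 0.32 ± 1.08. The strain values of SHE1 include its single tag B value, in experiment 2. In tag set A alone, SHE1 stood at 1.07, 0.84 and 1.36, above KAR9 at 0.072, 0.076 and 0.047. These are descriptions, since an exact two-sided permutation test of 3 signed differences cannot go below p = 0.25.

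No member followed the 5-FOA concentration by the test used. Slopes per 0.1% 5-FOA ran from -0.66 for BIM1 to 0.40 for ASE1. By limma, 0 members had an unadjusted p under 0.05, and 0.0% of all strains were called (263 had an unadjusted p under 0.05). Since every concentration had a single array, its effect and that of the experiment cannot be told apart, and 1 residual degree of freedom gives little power.

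Strains of genes that act with the members were set beside them in 4 lists. The Kar9 route list holds genes of actin cables and their transport, and the kinesin gene KIP3. Of its 5 strains 0 were called positive and 3 negative, where 16.2% and 17.4% of all strains were. The median of the list was -0.77. TPM1, a tropomyosin of actin cables, stood at -1.10 ± 0.14, BNI1, a formin that nucleates the cables, at -0.95 ± 0.02, and BUD6, which aids the formin, at -0.51 ± 0.08. KIP3, whose product shortens microtubules, was not called at 0.62 ± 0.38, and its tags stood at 1.68 and -0.43. MYO2, an essential myosin that carries Kar9, was not called at -0.77 ± 1.74.

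The dynein route list, which Bik1 serves and She1 restrains, had 10 of 12 strains called positive, where 16.2% of all strains were, with 0 called negative and a median of 2.33. Both tags were called positive in 8 of the 12, where 11.2% of all strains with both tags were. The list was chosen with these results known, so that its count is no independent evidence. DYN1 and PAC11 were not called, at -0.021 ± 0.20 and -0.39 ± 0.33, and each had tags of opposite sign. JNM1 and NIP100 of dynactin stood at 3.54 ± 0.44 and 3.29 ± 0.19. NUM1, the cortical anchor of dynein, stood at 3.36 ± 0.18, and LDB18 of dynactin at 3.001 ± 0.376. KIP2, the kinesin that brings Bik1 to plus ends, stood at 1.29 ± 0.07, beside 1.03 ± 0.11 for BIK1, and its tags stood at 0.45 and 2.13.

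Of the 9 midzone and anaphase partners tested, 3 were called positive and 2 negative, where 16.2% and 17.4% of all strains were. Their median was -0.056. After KIP1 came BMH1, whose product belongs to a family of phosphoprotein-binding adaptors that bind Fin1, at 3.18 ± 0.63, and SLK19, a protein of kinetochores and the midzone, at 2.85 ± 0.06. Both negative strains lack essential genes, without which haploids do not grow, and the part of this in their ratios was not tested. SLI15, of the chromosomal passenger complex, stood at -3.03 ± 1.29 on tag B alone, and STU1, a midzone protein of the CLASP family, at -1.07 ± 0.07 with no tag measured on all arrays. BMH2, the close copy of BMH1, was not called at 0.070 ± 0.34. Of the 8 other microtubule-binding proteins, 3 were called positive and 0 negative, against the same shares of 16.2% and 17.4%. Their median was 0.43. KAR3, a minus-end motor, stood at 1.89 ± 0.41, and BER1, linked to microtubule stability, at 0.59 ± 0.16. KIP2 was the other.

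**Figure D5:**
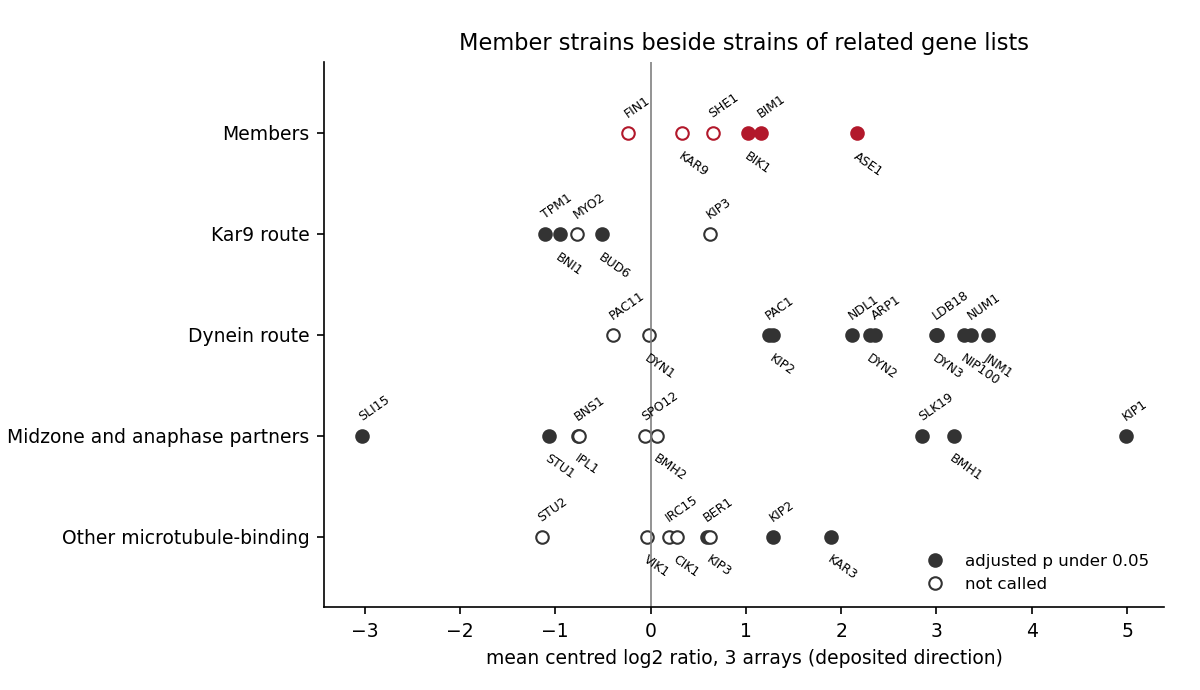
Each point is the mean centred log2 ratio of a strain over 3 arrays, with filled points for strains called by limma and open points for the rest, and the 6 members in red on the top row. The dynein route strains reach 3.54, the called Kar9 route strains lie between -1.10 and -0.51, and ASE1 at 2.17 lies below SLK19, BMH1 and KIP1 of the midzone and anaphase row.

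Tag differences like that of BIM1 occurred in these lists too. Of the 28 list strains with both tags on all arrays, 7 had a called difference, DYN1, DYN3, PAC1, PAC11, KIP2, KIP3 and CIK1, where 7.22% of all strains did. Among the 18 of these strains that were called, 3 did (DYN3, PAC1 and KIP2), where 10.9% of all called strains with both tags did. The widest split was that of PAC11, a dynein intermediate chain, at -4.06 and 3.28. The tags of PAC1, which brings dynein to plus ends, stood at -0.67 and 3.16, and those of CIK1, the partner of Kar3, at -0.43 and 0.98. Those of DYN1, the dynein heavy chain, went the other way at 1.61 and -1.65, as did those of KIP3. The part of tag sequence or labelling in these differences was not tested.

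Deletions can affect the genes beside them, and the nearest tested gene on each side of each member was read for comparison. None of these 12 strains lacks a gene that overlaps a member. A total of 2 were called positive and 1 negative, where 16.2% and 17.4% of all strains were. Their means ranged from -1.52 to 1.17, with a median of 0.16. The neighbours of ASE1, NOB1 at -1.52 ± 0.81 and LPL1 at -0.53 ± 0.28, were not called and lay on the other side of 0 from ASE1. NOB1 was not measured by tag A on every array, and its tag B mean was -0.69. On each side, 1 gene without a tested strain lay between ASE1 and the neighbour. An effect between neighbouring genes was not tested. Those of BIK1, HIS4 at -0.57 ± 0.54 and RNQ1 at 0.24 ± 0.17, were not called. BUD25, the nearest tested gene on one side of BIM1, was called at 1.17 ± 0.08, with its tags at 1.30 and 1.04. The mean of BIM1 was 1.16, but neither of its tags, at -0.18 and 2.50, was near that of BUD25. BUD25 is not adjacent, since 1 gene without a tested strain lies between BUD25 and BIM1. Both lie on chromosome V, as CIN8 does, and the part of this in their ratios was not tested. AFG3, on the other side of BIM1, stood at 0.27 ± 0.20 and was not called. The other called neighbours were PLC1, beside KAR9, at -1.10 ± 0.30, and HEK2, beside SHE1, at 0.54 ± 0.16.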

How the data were processed

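The authors deposited log2 ratios, 1 per probe and array, from images read with GenePix 5.1, per the labels' protocols. The sources used here do not give the formula, normalization, filters or direction. Intensities were not used here, which leaves signal over background unknown, and precision is limited by having 3 arrays. Array medians were -0.17, -0.15 and -0.15. A set of 36 values at a ratio of 999999 was left out as placeholders, and 210 at the lowest ratio, 0.01, were kept. Probes 10971 identifiers apart named the same gene in all 9397 pairs and were treated as the 2 tags (tag set A and tag set B) of a strain. Which set holds the upstream tags was not given.

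Values were centred on the median per array and tag set, then averaged over the spots of a tag and over the tags of a strain. Tests used limma 3.58.1 in R 4.3.3 on strains measured on every array (lmFit, eBayes, Benjamini-Hochberg over all strains, threshold 0.05). The same fit was made for each tag set, for the tag difference within arrays, and with a slope over 5-FOA. The code was tested on simulated data. The rule for named strains took the 6 members, the 2 strains nearest to each, the neighbouring genes, the marks of the sign and up to 4 called strains per list. Further list strains were named after their values were seen. Members and lists were chosen with earlier results of these data known. Protein features of the members were planned and not analysed here. Tables and plots used Python 3.11.15, pandas 2.3.3, numpy 2.4.6 and matplotlib 3.10.9.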

Additional observations from a re-analysis of the deposited data

How the results depend on the processing

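Settings changed 1 at a time. The use of a tag only where all arrays had it was chosen after seeing the data. Leaving out an array gave 0 to 0 calls for strains, members, members called by both tags, tag differences and members with a tag difference. A fit of 2 arrays has fewer degrees of freedom, and the cause of the lost calls was not tested. The 5-FOA covariate, which takes 1 of 2 residual degrees of freedom, left 228 strains called, 1 member (ASE1), 0 tag differences and 0 members with one. The trended and robust variance also left 0 tag differences and 0 members with one, and the cause was not tested. The tag value nearer to 0 called 751 strains, and tag set B alone called 5 members. The sign of BIM1 turned to -0.18 with the tag value nearer to 0 and with tag set A alone, and that of FIN1 to 0.22 in both, by construction of these settings. The tag difference of ASE1, which was not called, ran from -0.71 to 0.036 when an array was left out and turned to 0.036 without replicate 2. Without centring the strain count was 1863 and the same number of members, 3, was called. No 5-FOA trend was called under any of the 11 settings tried for it (0 each). Each ratio already pairs the pools within an array. No paired analysis was possible because the labels give 1 group, so that no replicate number is shared between groups.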

Other observations

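The strains most like each member were found by the Euclidean distance over 6 centred values, those of 2 tags on 3 arrays, among 4288 strains with all 6. The measure uses levels, so that it finds strains of the same size of ratio, and strains near 0 have many close neighbours. For ASE1 the nearest strains were TMA108, at a distance of 0.72 with a mean of 2.20, and NKP2, a kinetochore protein, at a distance of 0.83 with a mean of 2.10, where the median distance was 5.56. For BIM1 they were TPO5 (distance 1.11) and MSM1 (distance 1.46), both with the same split of tags, at -0.0023 and 2.12 for TPO5 and at -0.047 and 2.12 for MSM1. For BIK1 they were AAD6 and VFA1, with distances of 0.24 and 0.25 and means of 1.01 and 0.98. For KAR9 they were TRI1 and FAA3, at 0.19 and 0.22, and for FIN1 they were PLN1 and MRS1, at 0.23 and 0.35. SHE1 lacked tag set B values and was not compared.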
